A study of Homo sapiens with 18 samples.

Results

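OAS1, OAS2, OAS3 and OASL are the human oligoadenylate synthetase genes. They were followed across 18 Affymetrix Human Gene 2.1 ST arrays of HEK293 cells exposed to bacterial flagellin. A gene was taken as a member when the array's annotation named it, and no other gene, on a row of the value table, a row being 1 transcript cluster. Each of the 4 genes had exactly 1 such row: 16757324 for OAS1, 16757373 for OAS2, 16757347 for OAS3 and 16771417 for OASL. All 4 passed the filter on low values, and passed it on the mock arrays alone, among the 16111 genes tested.

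The synthetases are sensors of double-stranded RNA. On binding it, OAS1, OAS2 and OAS3 join ATP into short 2'-5'-linked chains of adenylate. These chains act as a second messenger in the antiviral state. OASL has lost the synthetase activity and carries ubiquitin-like domains, and it is known to bind RIG-I and raise its signalling. All 4 are classical targets of interferon. Secreted type I or III interferon acts through its receptors, JAK kinases and a transcription factor complex that contains IRF9, which binds interferon-stimulated response elements in promoters. TLR5, the receptor for flagellin, is known chiefly for signalling to NF-kB.

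HEK293 is a line of human embryonic kidney origin. Here the cells overexpressed murine TLR5, mock groups included, and they had grown for 7 passages in medium with light, medium or heavy lysine and arginine. The groups received a mock control or purified flagellin for 60 or 120 min. One flagellin came from the probiotic E. coli Nissle (EcN) and the other from the pathogen Salmonella Typhimurium SL1344 (ST). The flagellin amount was matched to a multiplicity of infection of 10. Each of the 6 groups had 3 arrays, lettered A, B and C and titled as biological replicates. The labels do not say which array carried which amino acid label, whether a letter joins arrays across groups, or whether the line is 1 clone. For the 6 ST arrays the description field names mock, whereas the title, source and treatment fields name ST. The titles were followed, so every ST result rests on them.

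5 arrays stood apart in genes of the NF-kB response. NFKBIA, the inhibitor that NF-kB itself induces, had log2 levels of 10.15 to 10.85 on mock 120 min A and on the C arrays of EcN 60, EcN 120, ST 60 and ST 120 min, against 8.09 to 8.82 on the other 13. The chemokine gene CXCL8 split the same arrays, at 5.62 to 8.76 against 2.16 to 2.90. Results that rest on these arrays are given with and without them, a choice made after the data were seen. Of 7 HEK293 line markers, NEFL lay at 9.90 to 10.65, and the neurofilament gene NEFM was the lowest, at 1.50 to 2.44 against array medians of 2.27 to 2.32. With flagellin over both times KRT18 rose by 0.35 (adjusted p = 0.00751) and PAX2 fell by 0.33 (adjusted p = 0.0197), and the other 5 line markers did not pass, VIM at -0.34 being nearest (adjusted p = 0.0516). Of the 5 leukocyte markers with a row, 4 were below the filter, PTPRC (CD45) lying at 1.10 to 1.55. The mean level of the 5 was 1.69 to 1.94 on mock, 1.69 to 1.95 on EcN and 1.68 to 1.88 on ST arrays. Plasmacytoid dendritic cell markers averaged 1.94 to 2.48, 2.03 to 2.43 and 1.90 to 2.34 in the same order, and fibroblast markers 2.49 to 2.67, 2.55 to 2.80 and 2.51 to 2.65. These means cover unlike levels. The fibroblast marker COL1A1 lay at 4.36 to 4.99, while COL1A2 and DCN were below the filter, at 1.61 to 2.01 and 1.25 to 1.55. The plasmacytoid markers IL3RA, at 2.44 to 2.97, and LILRA4, at 1.67 to 2.82, passed the filter, and CLEC4C did not. In such bulk samples, fewer cells of a type and less RNA per cell cannot be told apart.

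The promoters of OAS1 and OAS3 are shown because only these members were among the RefSeq promoters used. Both are RefSeq sequence of the GRCh38.p14 assembly, plus strand, from 250 bases before to 50 bases after the annotated start. They lie at chr12:112906712-112907011 for OAS1 and chr12:112938224-112938523 for OAS3. Capitals mark the core of an interferon-stimulated response element, searched on both strands as GAAANNGAAA or, with a shorter spacer, GAAANGAAA.
OAS1: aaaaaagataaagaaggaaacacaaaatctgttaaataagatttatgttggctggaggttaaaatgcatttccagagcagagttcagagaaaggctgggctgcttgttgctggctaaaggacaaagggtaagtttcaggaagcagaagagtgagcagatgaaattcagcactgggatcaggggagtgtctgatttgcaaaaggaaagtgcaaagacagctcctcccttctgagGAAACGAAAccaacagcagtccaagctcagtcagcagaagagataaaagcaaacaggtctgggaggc
OAS3: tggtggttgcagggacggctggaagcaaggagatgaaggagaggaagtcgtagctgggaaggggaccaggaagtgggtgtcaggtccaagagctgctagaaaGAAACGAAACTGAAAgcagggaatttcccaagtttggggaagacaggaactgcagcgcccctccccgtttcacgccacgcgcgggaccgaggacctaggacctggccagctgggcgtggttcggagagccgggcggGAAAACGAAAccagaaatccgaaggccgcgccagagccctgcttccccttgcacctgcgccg
The OAS1 promoter held 1 core, GAAACGAAA, its first base at position -17, where -1 is the base before the start. The OAS3 promoter held GAAAACGAAA at -12 and, at -148 and -143, an overlapping pair, GAAACGAAA and GAAACTGAAA. GAAANNGAAA occurred in 3.57% and GAAANGAAA in 3.12% of 35116 RefSeq promoters of 300 bases, and at least 1 of them in 6.40%. The gamma-activated site, TTCNNNGAA, known from genes that respond to interferon gamma, occurred once in OAS1, as TTCAGAGAA at -168, and in 7.66% of all promoters. The kappa B site, bound by NF-kB, matched OAS3 on both strands in overlapping windows at -130 and -129, and 5.91% of all promoters. OAS2 and OASL were not among these promoters, so theirs were not searched. A match is a description of letters, and no binding was measured here.

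OAS1 encodes the smallest of the active synthetases. Its log2 levels on arrays A, B and C were 2.69, 2.13 and 2.51 in mock and 2.89, 4.67 and 4.14 in EcN at 60 min. In ST at 60 min they were 4.89, 5.09 and 4.94. All ST arrays were high and close together, whereas EcN A stood only 0.20 above the highest mock array. At 120 min OAS1 levels were 2.15, 2.83 and 3.19 in mock, 2.90, 4.81 and 4.77 in EcN, and 4.59, 5.22 and 5.10 in ST. EcN A was again low and here overlapped mock, by 0.28, while ST stood 1.40 clear of mock. The means ± SD (n = 3) were 2.44 ± 0.29, 3.90 ± 0.91 and 4.97 ± 0.11 for mock, EcN and ST at 60 min. They were 2.72 ± 0.53, 4.16 ± 1.09 and 4.97 ± 0.33 at 120 min. At both times the widest gap within EcN lay between A and the other arrays.

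OAS2 encodes the synthetase of intermediate size. Its log2 levels on A, B and C were 2.58, 2.44 and 2.64 in mock at 60 min. They were 3.81, 5.09 and 4.98 in EcN and 4.35, 5.29 and 5.33 in ST. Every flagellin array was above every mock array, by 1.17 or more for EcN and 1.71 or more for ST. At 120 min the levels were 2.62, 3.47 and 2.86 in mock, 4.07, 4.62 and 5.28 in EcN, and 4.53, 5.37 and 5.51 in ST. The groups again did not overlap, with gaps of 0.59 and 1.06, and A was the lowest array of each flagellin group at both times. Means ± SD (n = 3) at 60 min were 2.55 ± 0.10 in mock, 4.63 ± 0.71 in EcN and 4.99 ± 0.55 in ST. At 120 min they were 2.98 ± 0.44, 4.66 ± 0.61 and 5.14 ± 0.53.

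OAS3 encodes the largest synthetase, which responds to long double-stranded RNA. It lay 4.09 to 5.01 log2 units above the array median on the mock arrays, so it was well measured without flagellin. Its levels on A, B and C were 6.64, 6.37 and 6.52 in mock, 6.99, 8.48 and 8.53 in EcN, and 8.36, 8.57 and 8.77 in ST at 60 min. At 120 min they were 6.82, 7.15 and 7.29 in mock, 7.23, 8.10 and 8.43 in EcN, and 8.20, 8.59 and 8.72 in ST. EcN A was the low array again, 0.35 above mock at 60 min and overlapping mock by 0.06 at 120 min, while ST stood 1.72 and 0.91 clear. Means ± SD (n = 3) were 6.51 ± 0.14, 8.00 ± 0.88 and 8.57 ± 0.20 at 60 min for mock, EcN and ST. At 120 min they were 7.09 ± 0.24, 7.92 ± 0.62 and 8.50 ± 0.27. The mock arrays at 120 min were all above those at 60 min, although the difference of 0.58 ± 0.34 (SE) did not pass the test (adjusted p = 0.512).

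OASL, the member without synthetase activity, was low and moved least. On the mock arrays it lay 0.02 to 0.63 log2 units above the array median, which limits how low a level its row can show. Its log2 levels on A, B and C were 2.71, 2.60 and 2.60 in mock, 3.14, 3.81 and 3.61 in EcN, and 3.46, 3.36 and 2.94 in ST at 60 min. At 120 min they were 2.30, 2.90 and 2.84 in mock, 3.02, 3.57 and 3.81 in EcN, and 3.05, 3.96 and 3.35 in ST. No flagellin group overlapped mock at its time, the gaps being 0.43, 0.23, 0.12 and 0.15. Means ± SD (n = 3) were 2.64 ± 0.06, 3.52 ± 0.34 and 3.25 ± 0.28 at 60 min, and 2.68 ± 0.33, 3.47 ± 0.40 and 3.45 ± 0.46 at 120 min.

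**Figure D1:**
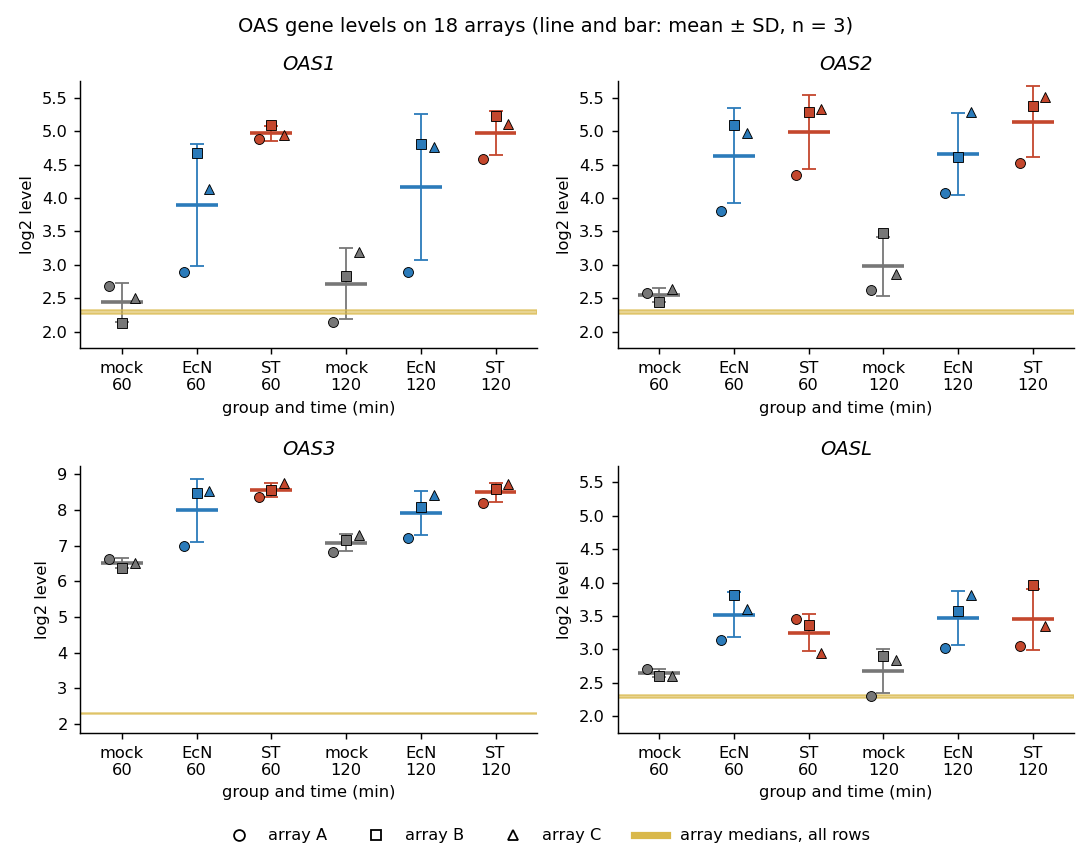
Log2 level of each OAS gene (vertical axis, deposited log2 units; OAS3 has a longer axis) by group and time, with 1 point per array, shaped by letter, and a line and bar for the mean ± SD of 3 arrays. The band marks the array medians, 2.27 to 2.32. All 6 ST arrays lie above all mock arrays for each of these genes, a separation whose share over all genes was not computed. The EcN A circles lie low for OAS1, at 2.89 and 2.90, and for OAS3, at 6.99 and 7.23.

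Ordered by mean, OAS1, OAS2 and OAS3 ran from both ST groups through both EcN groups to mock 120 and mock 60 min, whereas OASL had both EcN groups on top. Neighbours in these orders mostly overlapped in their ranges. For OAS1 all neighbours did. The exceptions were EcN 60 against mock 120 min for OAS2, mock 120 against mock 60 min for OAS3, and ST 60 against mock 120 min for OASL. Over both times, all 12 flagellin arrays exceeded all 6 mock arrays for OAS2 and for OASL. For OAS1 and OAS3 10 of the 12 did, the EcN A arrays being the exceptions. The share of all genes separated in this way over both times was not computed, so these counts have no background. For a single flagellin at a single time, 8.52% to 16.7% of all genes had every flagellin array above every mock array.

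Averaged over both flagellins and both times, all 4 synthetase genes rose against mock. OAS2 rose by 2.08 ± 0.23 log2 units (SE; 4.24-fold, adjusted p = 0.000872) and had the smallest p-value of the 16111 genes. OAS1 rose by 1.92 ± 0.28 (3.78-fold, adjusted p = 0.00157). OAS3 rose by 1.45 ± 0.21 (2.73-fold, adjusted p = 0.00157), and OASL by 0.76 ± 0.15 (1.70-fold, adjusted p = 0.00517). By size of increase they ranked 4th, 5th, 7th and 27th among all genes tested. Of all genes, 6.83% were called higher and 7.52% lower in this comparison, and the median log2 difference was 0.005, against 1.68 for the members. Without the 5 arrays high in NFKBIA 3 of the 4 were called, OASL at 0.67 with adjusted p = 0.0526. That fit called 2.71% of all genes in either direction.

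At 60 min, 3 of 4 members rose with EcN flagellin, where 3.08% of all genes did. OAS2 rose 4.20-fold (log2 2.07 ± 0.38 SE, adjusted p = 0.018), OAS3 2.81-fold (1.49 ± 0.34, adjusted p = 0.0248) and OASL 1.85-fold (0.89 ± 0.25, adjusted p = 0.0442). OAS1, whose EcN A array was near mock, differed by 1.46 ± 0.46 with adjusted p = 0.0659. All 4 members had every EcN array above every mock array, as had 16.7% of all genes. The calls depended on single arrays: no member passed when array B or C of mock, or array B or C of EcN, was left out at this time, and in those fits 7, 3, 0 and 81 genes of all were called in either direction. Without the 5 high NFKBIA arrays OAS2 alone passed (1.90, adjusted p = 0.0231). OAS3 was at 1.22 (adjusted p = 0.0658) and OASL at 0.84 (0.0758), and that fit called 6.16% of all genes. Without the 6 C arrays no member passed, and 14 genes of all (0.0869%) were called.

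With ST flagellin at 60 min OAS1, OAS2 and OAS3 rose, where 2.23% of all genes did. OAS1 rose 5.77-fold (log2 2.53 ± 0.46 SE, adjusted p = 0.0126), OAS2 5.40-fold (2.43 ± 0.38, adjusted p = 0.00615) and OAS3 4.16-fold (2.06 ± 0.34, adjusted p = 0.00781). OASL differed by 0.62 ± 0.25 and did not pass (adjusted p = 0.148). All 4 had every ST array above every mock array, against 14.2% of genes. The 3 calls stayed when any 1 array was left out, in fits that called 79 to 1362 of all genes. They also stayed without the 5 high NFKBIA arrays (2.55, 2.27 and 1.96, adjusted p = 0.0425, 0.0308 and 0.0339). That fit called 2.08% of all genes. None passed without the 6 C arrays, at 2.58, 2.31 and 1.96 with adjusted p = 0.104, 0.0727 and 0.0779. In that fit 32 genes of all (0.199%) were called in either direction.

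At 120 min no member passed against mock with EcN flagellin, a comparison in which 4 genes of all, or 0.0248%, were called higher. OAS2 differed by 1.67 ± 0.38 log2 units (SE; adjusted p = 0.0757), OAS1 by 1.44 ± 0.46 (0.136), OASL by 0.78 ± 0.25 (0.134) and OAS3 by 0.83 ± 0.34 (0.23). All 4 members had an unadjusted p under 0.05, as had 2661 of the 16111 genes. OAS2 and OASL had every EcN array above every mock array, against 8.52% of genes. Without the 5 high NFKBIA arrays the differences were 1.18 for OAS2, 0.85 for OAS1, 0.42 for OASL and 0.45 for OAS3, with adjusted p = 0.3, 0.574, 0.558 and 0.661. Leaving out mock 120 min C brought OAS2 past the threshold, in a fit that called 1177 of the 16111 genes (7.31%) in either direction.

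OAS1 and OAS2 rose with ST flagellin at 120 min, where 0.31% of all genes did. OAS1 rose 4.74-fold (log2 2.24 ± 0.46 SE, adjusted p = 0.0436) and OAS2 4.45-fold (2.15 ± 0.38, adjusted p = 0.0331). OAS3 differed by 1.42 ± 0.34 (adjusted p = 0.0695) and OASL by 0.77 ± 0.25 (0.131). All 4 had every ST array above every mock array, against 8.81% of genes. Neither gene passed without mock 120 min B, EcN 120 min B, or any 1 of the 3 ST arrays. In that order these fits called 0, 1, 0, 0 and 0 of all genes in either direction. Leaving out any 1 mock 60 or ST 60 min array, EcN 60 min C or EcN 120 min C left 1 call. Those fits called 36 to 69 of all genes. Without mock 120 min C 3 members passed, where 715 genes of all (4.44%) were called. Without EcN 60 min A 3 passed as well, where 80 genes of all (0.497%) were called. Without the 5 high NFKBIA arrays OAS1 was at 1.89 (adjusted p = 0.127) and OAS2 at 1.79 (0.0709). That fit called 0.788% of all genes.

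**Figure D2:**
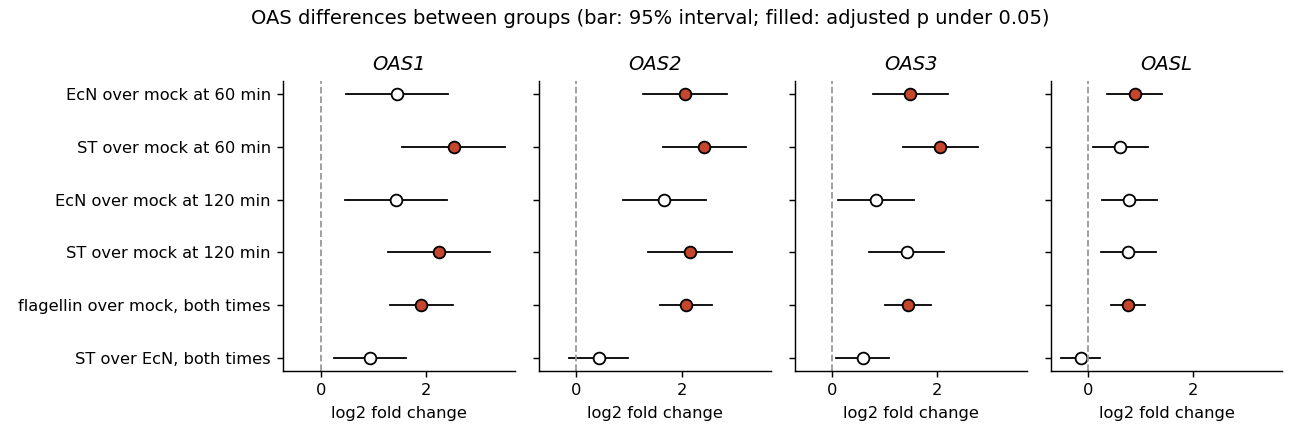
Log2 fold change of each OAS gene (horizontal axis) in 6 comparisons (vertical axis), with 95% intervals from the fit over 18 arrays and filled points where the adjusted p was under 0.05. All 16 points for a single flagellin against mock at 1 time lie right of 0, 8 of them filled, and in the last row OASL alone lies left of 0, at -0.14.

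The 2 flagellins were compared directly. No member passed between ST and EcN at 60 min, at 120 min or over both times, where 0%, 0% and 0.59% of all genes were called in either direction. Over both times OAS1 was 0.94 ± 0.32 log2 units (SE) higher with ST, with a 95% interval of 0.25 to 1.63 and adjusted p = 0.169. OAS3 was 0.58 ± 0.24 higher (interval 0.07 to 1.08, adjusted p = 0.249) and OAS2 0.42 ± 0.27 higher (-0.14 to 0.98, adjusted p = 0.464). OASL differed by -0.14 ± 0.17 (-0.51 to 0.23, adjusted p = 0.74). Over both times the differences were 1.13 for OAS1, 0.73 for OAS3, 0.49 for OAS2 and 0.07 for OASL without the 5 high NFKBIA arrays. Leaving out 1 EcN A array brought them down to as little as 0.62 for OAS1, 0.32 for OAS3 and 0.22 for OAS2, and OAS1 at 120 min from 0.80 to 0.17. At an unadjusted p under 0.05 there were 2 members over both times, 1 at 60 min and 0 at 120 min, beside 2608, 1481 and 1882 of all genes. The OAS1 interval reaches from a small difference to more than 1.5 log2 units, and these data do not show that the flagellins acted alike on it.

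The EcN A arrays were the lowest EcN arrays of their time in all 4 genes. For OAS2 at 120 min EcN A did not stand apart, with A, B and C at 4.07, 4.62 and 5.28. ST A was also the lowest ST array at both times for OAS1, OAS2 and OAS3, at 4.35 and 4.53 for OAS2. Relative to the mean of mock at 60 min, OAS1 stood at 0.45 and 0.46 on the EcN A arrays, at 1.70 to 2.37 on the 4 EcN B and C arrays, and at 2.15 to 2.77 on the 6 ST arrays. OAS3 stood at 0.48 and 0.72, at 1.59 to 2.02, and at 1.69 to 2.26. OAS2 stood at 1.25 and 1.51, 2.07 to 2.73, and 1.80 to 2.96, and OASL at 0.39 to 0.51, 0.93 to 1.17, and 0.30 to 1.32. For OAS2 and OASL the EcN B and C arrays lay inside the ST range. ISG15, a ubiquitin-like protein induced by interferon, moved with the members: its level was 4.22 and 4.53 on EcN A, 5.79 to 6.12 on EcN B and C, and 6.27 to 7.08 on ST arrays.

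No difference between the times passed the test for a member. None was called between 120 and 60 min within mock, EcN or ST, and none for the change of the EcN or the ST effect with time, comparisons in which 0% of all genes were called. Between the times OAS1 differed by 0.28 ± 0.46 log2 units (SE) in mock, 0.26 ± 0.46 in EcN and -0.01 ± 0.46 in ST. OAS2 differed by 0.43 ± 0.38, 0.03 ± 0.38 and 0.15 ± 0.38, and OAS3 by 0.58 ± 0.34, -0.08 ± 0.34 and -0.06 ± 0.34. OASL differed by 0.05 ± 0.25, -0.05 ± 0.25 and 0.20 ± 0.25. Among the members the largest change of a flagellin effect was in OAS3, at -0.66 ± 0.48 for EcN (adjusted p = 0.604) and -0.64 ± 0.48 for ST (adjusted p = 0.637). No member reached an unadjusted p under 0.05 in these 5 comparisons, while 1950, 1281 and 773 of all genes did within mock, EcN and ST, and 1936 and 1731 for the EcN and the ST effect.

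The mock arrays at 120 min differed among themselves in some interferon-induced genes. On mock 120 min A, B and C the levels of IFI44L were 2.25, 4.84 and 4.83 and those of IFIT3 were 2.12, 4.72 and 5.12, against 2.65 to 3.15 and 2.45 to 2.96 at 60 min. IRF9, a DNA-binding interferon regulatory factor, was at 5.22, 6.17 and 6.16. OAS1, OAS2, OAS3 and OASL were likewise lowest on mock 120 min A, which is the mock array high in NFKBIA. ISG15 was more even on mock 120 min A, B and C, at 3.94, 4.15 and 4.28. IRF7 was highest on A, at 0.02, -0.23 and -0.11 relative to the mean of mock at 60 min. Without the 5 high NFKBIA arrays the mock difference between times was 0.57 for OAS1, 0.61 for OAS2, 0.71 for OAS3 and 0.24 for OASL, none of which passed, while 809 of all genes did against 0 with all arrays. The part of these arrays in the 120 min comparisons was not tested further.

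OAS2 was high on both sides of the split in NFKBIA. OAS2 was at 4.98 to 5.51 on the 4 flagellin arrays high in NFKBIA, at 3.81 to 5.37 on the 8 others, and at 2.62 on the mock array high in NFKBIA. Over the 18 arrays Pearson's r with NFKBIA was 0.12 for OAS1, 0.22 for OAS2, 0.27 for OAS3 and -0.09 for OASL. These describe 18 arrays that share 6 groups. As deviations from the group means the r values were 0.07, 0.37, 0.36 and -0.21. Among the OAS genes r was 0.92 to 0.96 for pairs of OAS1, OAS2 and OAS3 and 0.79 to 0.83 for pairs with OASL. As deviations from group means, OAS1 and OAS3 had the highest r, 0.91, and OAS2 and OASL the lowest, 0.61.

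**Figure D3:**
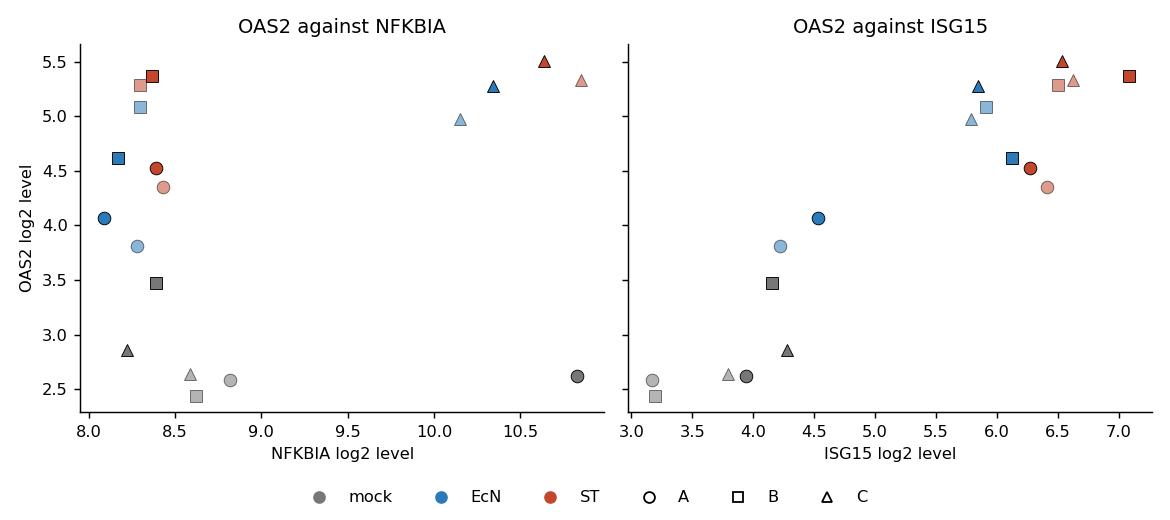
OAS2 log2 level (vertical axis) against NFKBIA and against ISG15 log2 level (horizontal axes), 1 point per array, coloured by treatment, shaped by letter, pale for 60 and dark for 120 min. The 5 arrays at NFKBIA levels of 10.15 or more hold OAS2 levels from 2.62 to 5.51, whereas OAS2 rises along ISG15 from 3.17 to 7.08.

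The genes whose levels over the 18 arrays were most like each member were mostly interferon-induced. By Pearson's r over 16107 other genes, OAS1 was closest to ISG15 (0.971), SAMD9 (0.964) and IFI35 (0.954), followed by RIGI and IFI6. OAS2 was closest to IFI35 (0.932), ISG15 (0.931) and IFI44L (0.927), then IFI6 and DHX58. OAS3 was closest to PARP12 (0.972), RIGI (0.968) and ISG15 (0.967), then IFI6 and IFI44. For OASL they were RSAD2 (0.904), the antiviral radical-SAM enzyme viperin, SAMD9L (0.850), the laminin gene LAMA4 (0.833), ABAT (0.829) and IFI35 (0.828). Of the 13 distinct genes, 10 stood on one of the lists of pathway genes, and PARP12, LAMA4 and ABAT did not. The arrays share 6 group means, which these values include.

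Among genes around the oligoadenylate step, none of 3 measured genes passed the test for flagellin over mock at both times. ABCE1, an ATP-binding protein of ribosome recycling, differed by 0.04 ± 0.06 log2 units (SE). PDE12, a phosphodiesterase that cuts the oligoadenylates, differed by -0.14 ± 0.08 and AKAP7 by 0.12 ± 0.07. Adjusted p was 0.708, 0.272 and 0.263. All values that follow are for this comparison of both flagellins with mock over both times, unless another is named.

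Of 8 other sensors of nucleic acid, 4 rose and 1 fell. RIGI, which recognises RNA with a 5' triphosphate, rose by 1.10 ± 0.17 (SE), its relative DHX58 (LGP2) by 0.91 ± 0.17 and IFIH1 (MDA5), which binds long double-stranded RNA, by 0.61 ± 0.08. EIF2AK2, the kinase PKR, which halts translation on binding double-stranded RNA, rose by 0.30 ± 0.07. MAVS, the adaptor through which RIGI and IFIH1 signal, fell by 0.44 ± 0.07. TLR3 (0.20 ± 0.09), ADAR (0.08 ± 0.06) and STING1 (-0.05 ± 0.06) did not pass, and ZBP1 and CGAS were below the filter. The list's median was 0.25, against 0.005 over all genes. Without the 5 high NFKBIA arrays 2 rose and 1 fell, in a fit that called 2.71% of all genes in either direction.

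No interferon gene passed. IFNB1 and IFNA1, genes of type I interferon, lay at 1.31 to 1.89 and 0.58 to 1.38 on all arrays and, with IFNA2, IFNE and IFNK, were below the filter. The type III genes IFNL1 (0.29 ± 0.14 SE, adjusted p = 0.165), IFNL2 (0.22 ± 0.10, 0.152) and IFNL3 (0.09 ± 0.12, 0.65) were tested. IFNL2 and IFNL3 are near-identical copies, and their values are uncertain as to which gene they measure.

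Of 10 receptor, kinase and factor genes, 2 rose and 3 fell. IRF9 rose by 0.91 ± 0.13 (SE; adjusted p = 0.00144) and IRF7, which drives type I interferon genes, by 0.91 ± 0.14 (0.00203). The receptor chains IFNAR1 (-0.25 ± 0.06), IFNAR2 (-0.30 ± 0.09) and IFNGR2 (-0.28 ± 0.08) were lower, each past the threshold. The median of the list was 0.06. JAK1 and TYK2, the kinases on the receptor, both stood at 0.06 and did not pass. IRF7 was also 0.88 higher with ST than with EcN over both times (adjusted p = 0.0333), the sole gene of its list to pass there, a call lost without the 5 high NFKBIA arrays and without the 6 C arrays. Against mock, without the 5 high NFKBIA arrays, 2 of the list rose and 0 fell, where 2.71% of all genes were called in either direction.

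Of 5 genes of feedback on the interferon response, 2 rose and 1 fell. ISG15 rose by 2.23 ± 0.25 (SE; adjusted p = 0.000872), and USP18, the protease that removes ISG15 and blocks the receptor, by 0.23 ± 0.07 (0.0335). PIAS1, a SUMO ligase that restrains interferon signalling, fell by 0.38 ± 0.07 (adjusted p = 0.00418). SOCS1 (0.02 ± 0.16) and SOCS3 (-0.11 ± 0.09) did not pass, and the median was 0.02. Without the 5 high NFKBIA arrays 1 rose and 1 fell, where 2.71% of all genes were called in either direction.

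**Figure D4:**
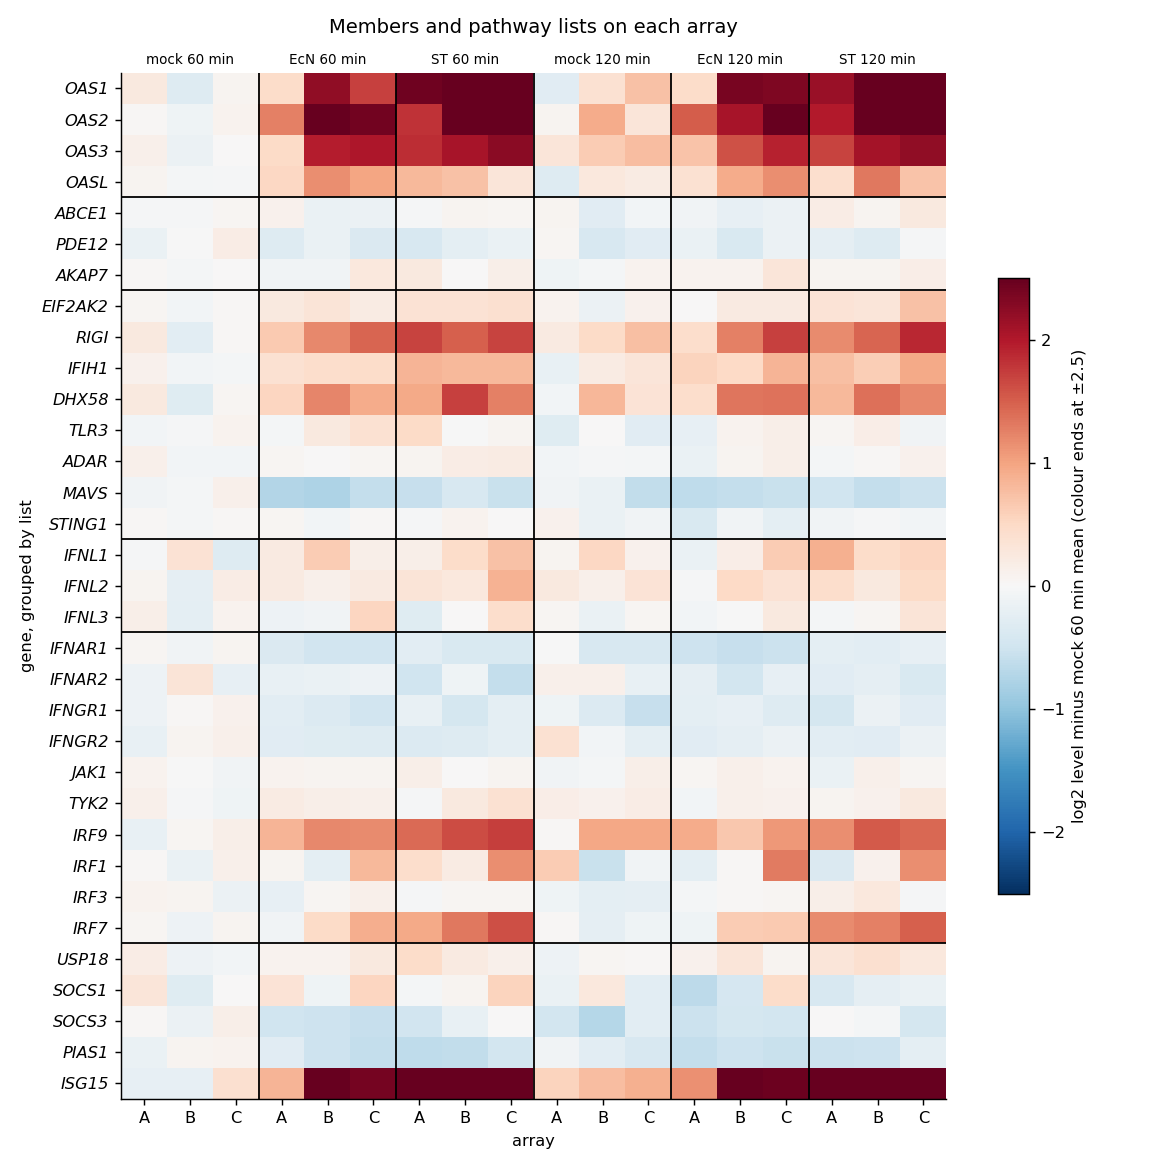
Log2 level minus the mock 60 min mean (colour, ending at 2.5 in each direction) for the OAS genes and 5 lists of their pathway (rows, lists parted by lines) on each array (columns, grouped by treatment and time). OAS1, OAS2, OAS3 and ISG15 are darkest on the ST and the EcN B and C arrays. IFNAR1, PIAS1 and MAVS are on the blue side on the flagellin arrays, and also on mock 120 min B and C. On these 2 mock arrays IFNAR1 stands at -0.40 and -0.41, PIAS1 at -0.27 and -0.40, and MAVS at -0.16 and -0.61.

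Of 29 other interferon-stimulated genes tested, 25 rose and 0 fell, with a median of 0.56 against 0.005 over all genes. IFI44L rose by 2.59 ± 0.32 (SE) and IFIT3, a partner of the RNA-binding protein IFIT1, by 2.13 ± 0.35. IFI44 rose by 1.67 ± 0.25, IFI27 by 1.44 ± 0.28 and RSAD2 by 1.42 ± 0.22. MX1 and MX2, dynamin-like antiviral GTPases, rose by 0.45 ± 0.11 and 0.52 ± 0.13. The 4 that did not pass were XAF1 (0.28 ± 0.14), IFITM2 (-0.13 ± 0.08), IFITM3 (0.17 ± 0.12) and PLSCR1 (0.19 ± 0.10), and DDX60 was below the filter. By single comparison 14 rose with EcN and 18 with ST at 60 min, and 0 with EcN and 4 with ST at 120 min. In that order 3.08%, 2.23%, 0.0248% and 0.31% of all genes were called higher. At 120 min 12 with EcN and 20 with ST were higher at an unadjusted p under 0.05. In either direction 2661 and 2828 of all genes had such a p. Without the 5 high NFKBIA arrays 9 of the 29 passed over both times, and 14 without the 6 C arrays, with 28 above 0 in both fits. Those fits called 2.71% and 12.2% of all genes in either direction. An interferon-stimulated response element core of either spacing lay in the promoters of 23 of the 26 of these genes that had one in the table. The count was 4 of 6 sensors, 4 of 8 interferon genes, 2 of 4 feedback genes and 0 of 8 receptor, kinase and factor genes.

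In the NF-kB list none of 5 genes passed, and the standard errors were wide: NFKBIA differed by 0.11 ± 0.52, TNFAIP3 by 0.25 ± 0.67 and CXCL8 by 0.98 ± 1.13 (SE). None of 6 promoters of this list held an interferon-stimulated response element core of either spacing. Of 4 reference genes, HPRT1 (-0.28 ± 0.07), GAPDH (-0.24 ± 0.07) and TBP (-0.22 ± 0.07) were lower with flagellin past the threshold, opposite in sign to the OAS genes, and ACTB (-0.44 ± 0.16) was not called. TBP lost its call with a second quantile normalization (adjusted p = 0.0719), and none of the 4 was called without the 5 high NFKBIA arrays.

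OAS1, OAS3 and OAS2 are direct neighbours in RefSeq's gene order, and neither gene beyond OAS2 passed the test. DTX1 differed by 0.01 ± 0.10 (SE; adjusted p = 0.972) and RASAL1 beyond it by 0.06 ± 0.11 (adjusted p = 0.739). On the OAS1 side MIR1302-1 and RPH3A were below the filter. OASL lies elsewhere, between SPPL3 (-0.12 ± 0.06, adjusted p = 0.17) and P2RX7 (0.09 ± 0.15, adjusted p = 0.745). ACADS, a mitochondrial fatty acid dehydrogenase next after SPPL3, rose by 0.62 ± 0.14 (adjusted p = 0.0099), and by 0.90 ± 0.23 with EcN at 60 min (adjusted p = 0.0333).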

How the data were processed

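Gene expression was measured on 18 arrays in 6 groups of 3. The authors deposited 1 table of log2 values, made with RMA in oligo 1.30.0 per the submitters' processing notes. It was used as deposited. The sources used here give no genome build or annotation version. Of 53617 rows, 23871 had 1 gene symbol, updated through the RefSeq gene table. The filter on low values kept a row that exceeded the median of its array on 3 arrays or more, and the row with the highest mean stood for a gene (399 genes had several).

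limma 3.58.1 (R 4.3.3) gave the tests: lmFit on 6 group means over all 18 arrays, eBayes (12 residual and 4.2 prior degrees of freedom), two-sided p-values adjusted by Benjamini-Hochberg over 16111 genes in each of 13 comparisons. A gene was called at an adjusted p under 0.05. A difference of log2 values is a log2 fold change, and folds are linear ratios of the array's values. With 3 arrays a group, their number limits the precision. The members and lists were chosen with earlier results of these data known. Genes named are the 4 members, every gene list's members by role, the 5 genes most like each member by Pearson's r, and the neighbours in gene order. Motifs were searched in RefSeq promoters, which included OAS1 and OAS3, 2 of the 4 members. OAS2 and OASL were absent and were not searched. Alternatives were another scaling, filter, row rule, moderation or set of arrays, and the letter as a block. Some genes of the lists are not reported here.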

Additional observations from a re-analysis of the deposited data

How the results depend on the processing

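The direction of all 4 members against mock, for each flagellin at each time and for both together, was the same under the 29 alternatives. For both flagellins and times together, the log2 differences ranged over these alternatives from 1.66 to 2.07 for OAS1, 1.78 to 2.21 for OAS2, 1.20 to 1.57 for OAS3 and 0.67 to 0.82 for OASL, and OASL alone lost its call, without the 5 arrays high in NFKBIA. The counts of members called at a single time moved more. Leaving out each array in turn gave 0 to 4 members for EcN at 60 min, 0 to 1 for EcN at 120 min and 0 to 3 for ST at 120 min. The genes of all called in these fits, in either direction, moved as widely: 0 to 1856, 0 to 1177 and 0 to 905 in that order. Without the C arrays the count was 0 for EcN at 60 min, ST at 60 min and ST at 120 min. There 14, 32 and 0 genes of all were called. Without the 5 arrays high in NFKBIA the count was 1 for EcN at 60 min and 0 for ST at 120 min. There 6.16% and 0.788% of all genes were called. For ST at 120 min the count was 1 with a second quantile normalization, with no filter or with array weights. In that order these fits called 0.31%, 0.17% and 1.05% of all genes. The count was 0 when the fit held the arrays of that comparison alone, where 3 genes of all were called. For EcN at 120 min it was 1 with trended and robust moderation, where 1.33% of all genes were called. With the letter as a replicate block, 4 members passed for EcN at 60 min, 1 for EcN at 120 min and 3 for ST at 120 min. Of all genes, 4.72%, 0.0248% and 0.509% were called there. The arrays share only a letter: over 27 same-letter pairs the correlation of deviations ran from -0.237 to 0.273, with 7 over 0.1.

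Small differences that did not pass changed sign. OASL in ST over EcN was 0.21 at 120 min and 0.073 over both times without the C arrays and likewise without the 5 arrays. The OASL mock difference between times was -0.048 without the C arrays, and its change of ST effect was -0.012 with array weights and -0.14 without the 5 arrays. OAS2 in EcN over time was -0.073 with array weights and -0.10 without the C arrays or the 5 arrays, and in ST over time it was -0.10 with weights. With a second quantile normalization the OAS1 change of EcN effect was 0.033 and its ST difference between times 0.032. Leaving out 1 array at a time, differences between times in EcN ranged from -0.24 to 0.89 for OAS1, -0.38 to 0.33 for OAS2, -0.58 to 0.27 for OAS3 and -0.24 to 0.17 for OASL. In ST they ranged from -0.13 to 0.18, -0.17 to 0.45, -0.17 to 0.088 and -0.052 to 0.40. The mock difference of OASL ranged from -0.062 to 0.24. The change of EcN effect ranged from -0.52 to 0.61 for OAS1 and -0.29 to 0.12 for OASL, and that of ST from -0.60 to 0.022 for OAS2 and -0.10 to 0.35 for OASL. ST over EcN ranged from -0.046 to 0.68 for OAS2 at 60 min and from -0.27 to 0.19 for OASL at 120 min. The causes were not tested. OAS1, OAS2 and OASL lay within 1.2 log2 units of the array median on mock arrays, which limits how low a level these rows can show.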
